A study of Salvia dorisiana with 6 samples.

Results

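Stems of *Salvia dorisiana* were compared with its mature leaves, those longer than 10 cm, across every transcript of the deposited list, 85 of 85. *S. dorisiana* is a fruit-scented sage whose glandular trichomes, secretory hairs on the plant surface, make the monoterpenoid methylperillate (MePA). Both libraries came from untreated plants, grown in a greenhouse and propagated as cuttings, and the labels give neither the age nor the number of plants per sample. RNA sequencing was done on 6 tissues with 1 library each: besides the stem and these leaves, they were roots, isolated trichomes and smaller leaves of 3–10 cm or of <3 cm. The list had been drawn up by the authors from the trichome transcriptome, by an RPKM (reads per unit of transcript length, relative to all mapped reads) above 1000 in trichomes and by a correlation R above 0.6 with the limonene synthase SdLS and with the pathway metabolites over the same libraries. It therefore holds trichome-rich transcripts, it is not independent evidence of how stem and leaf differ, and other transcripts were not analysed here. Gene names other than those the study gave are closest matches in other species.

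Glandular trichomes of the mint family build volatile terpenes in their secretory head cells and store them under the cuticle. The methylerythritol phosphate (MEP) pathway of plastids supplies the isoprene units, prenyl diphosphate synthases join them, and terpene synthases turn the products into olefins, which cytochrome P450s, dehydrogenases and methyltransferases then modify. In the MePA pathway limonene is made by SdLS and hydroxylated to perillyl alcohol by the P450 SdL7H. The perillyl alcohol dehydrogenase SdPOHDH oxidises this alcohol to perillyl aldehyde, and SdPAOMT methylates perillic acid. For the step from the aldehyde to the acid the study had no *S. dorisiana* enzyme.

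Each transcript is described by its RPKM in both libraries and by the ratio of stem RPKM over leaf RPKM. Group summaries use the log2 ratio of RPKM + 1, which is negative where stem was lower and understates the ratios of low transcripts. The fragments behind each RPKM were recovered by searching for the coding lengths and library totals that make them whole numbers, which held for 510 of 510 values over the 6 libraries within 0.001 fragments. Stem had 7323656 mapped fragments in this way and leaves >10 cm 9454204, and a listed transcript had a median of 442 fragments in stem and 967 in the leaf library. The lowest had 9 in stem and 3 in the leaf library, and 8 transcripts in stem and 4 in the leaf library had fewer than 50. The intervals are exact 95% intervals (Clopper-Pearson for a ratio, Poisson for an RPKM) and cover counting error only. Each tissue has 1 library, so differences could not be set against replicates and none was tested, and the values compare these libraries and not the tissues at large. The list holds no gene that defines stem or mature leaf, so the labels could not be checked against such markers. All 85 transcripts were highest in trichomes, and the median level was 2.24% of the trichome level in stem and 3.35% in leaves >10 cm.

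Most listed transcripts were lower in stem than in leaves >10 cm, and by a modest margin. In stem 63 transcripts were lower (74.1% of the list) and 22 were higher (25.9%). By more than 2-fold, 23 were lower (27.1%) and 4 were higher (4.71%). The median log2 ratio was −0.46, so the typical transcript was 1.37 times as high in the leaf library, and single values ran from −4.19 to 1.66. The interval of the ratio lay below 1 for 56 transcripts, above 1 for 17 and on both sides of 1 for 12. The 63 transcripts that were lower in stem than in leaves >10 cm were also lower in stem than in both smaller leaf classes. Together the list took 1.42% of the mapped fragments in stem and 1.83% in the leaf library. Mapped means mapped to the trichome-derived open reading frames, so RPKM and these shares leave out all other reads. In whole organs, fewer trichomes and less RNA per trichome cannot be told apart. The share of the listed levels that came from trichomes and not from other cells was not tested. Where each library was scaled to the list median, the counts past 2-fold were 15 lower and 8 higher, and where it was scaled to the same sum over the list they were 17 and 6. These scalings move the median log2 ratio from −0.46 to 0 and to −0.19, so transcripts with a ratio just below 1 change sides.

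**Figure D1:**
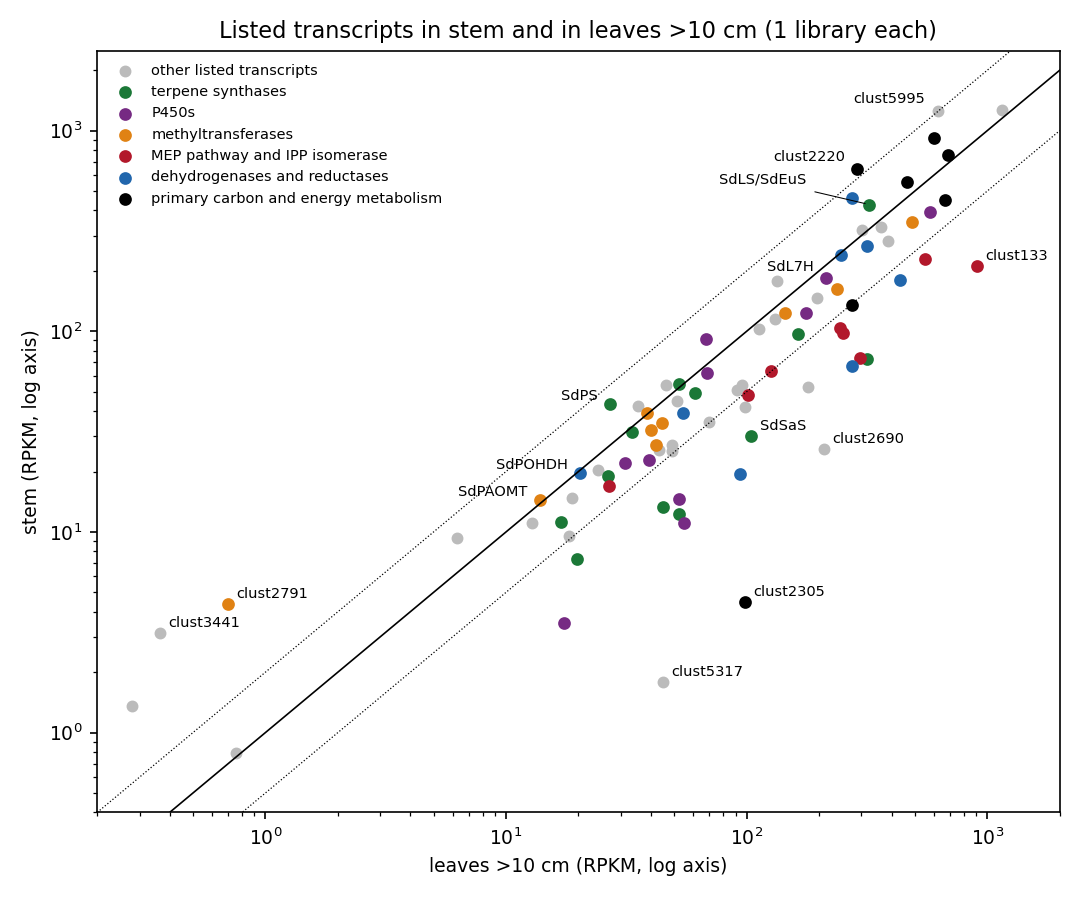
RPKM of the 85 listed transcripts in leaves >10 cm (horizontal, log axis) and in stem (vertical, log axis), 1 library each and 1 point per transcript, coloured by gene group. The solid line marks equal RPKM and the dotted lines a ratio of 2 either way. Most points lie below the solid line, with clust2305 and clust5317 far below it, and the SdLS/SdEuS cluster, clust2220 and clust5995 lie above it.

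The gene groups, drawn from BLAST hits and PFAM domains, were spread around this median. The MEP pathway had the lowest median, at −1.25. Lipid, wax and cuticle genes were at −0.88, acyltransferases at −0.81 and carotenoid cleavage dioxygenases at −0.78, and their order changed with the processing. With a pseudocount of 10 RPKM they were at −0.54, −0.72 and −0.66, and with at least 50 fragments in both libraries, a filter chosen after seeing the data, acyltransferases were at −0.48. Terpene synthases at −0.55 and P450s at −0.53 lay close to the list. Positive medians were found for sieve element occlusion proteins at 0.27, primary carbon and energy metabolism at 0.14 and antioxidant enzymes at 0.08. Of the 13 groups 10 had a median below 0, and 6 of 13 were below 0 after scaling to the list median. The groups that turned were methyltransferases, dehydrogenases and reductases, prenyl diphosphate synthases and BURP-domain proteins, of which the last also turned after scaling to the same sum.

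**Figure D2:**
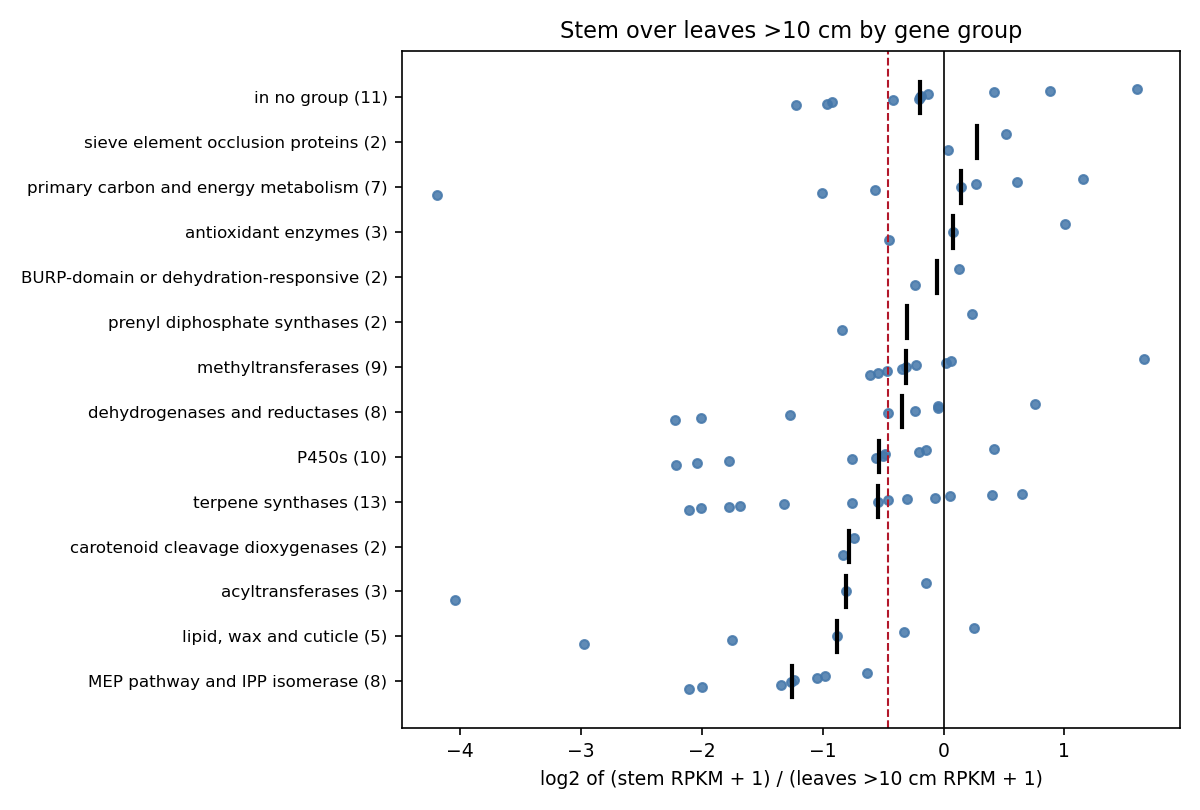
Log2 ratio of stem over leaves >10 cm, from RPKM + 1 (horizontal), by gene group (vertical, number of transcripts in brackets). Points are transcripts, black bars group medians, the solid line a ratio of 1 and the dashed red line the list median of −0.46. The 8 MEP transcripts all lie to the left of the dashed line, while those of most other groups lie on both sides of it.

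The 4 transcripts of the MePA pathway differed by less than 2-fold between stem and mature leaf, with log2 ratios from −0.20 to 0.40, all above the list median. The cluster of SdLS was at 428 RPKM in stem (417–439) and 323 in leaves >10 cm (315–332), a ratio of 1.32 (1.28–1.38). This cluster is named for SdLS and for the eucalyptol synthase SdEuS, so the value is that of the pair. SdL7H was at 185 RPKM in stem (177–193) and 213 in the leaf library (206–221), a ratio of 0.87 (0.82–0.92). SdPOHDH was at 19.7 and 20.3 RPKM, a ratio of 0.97 (0.79–1.19). SdPAOMT was at 14.4 and 13.8 RPKM, a ratio of 1.05 (0.81–1.35). The intervals of SdPOHDH and SdPAOMT span 1, which bounds their difference and does not show that they are equal. The SdLS cluster stood at 2.31 times the RPKM of SdL7H in stem and at 1.51 times in the leaf library, and in trichomes at 2.41 times. In leaves <3 cm the cluster and SdL7H were at 1817 and 1007 RPKM, and in leaves 3–10 cm at 1016 and 589. In roots they were at 455 and 13.1 RPKM. The log2 ratios of SdL7H and SdPOHDH, −0.20 and −0.04, became positive when the libraries were scaled to the list median or to the same sum. The 4 transcripts, which also serve as the trichome markers here, summed to 647 RPKM in stem and 570 in leaves >10 cm. They summed to 579 RPKM in roots and 34226 in trichomes, and none was at 0. In stem 2 of the 4 were higher and 2 lower, and the SdLS cluster made up most of each sum. The whole list, of which every transcript was highest in trichomes, went the other way. It summed to 12723 RPKM in stem and 15427 in leaves >10 cm, with 63 of 85 transcripts lower in stem. How far either sum follows trichome content was not tested.

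**Figure D3:**
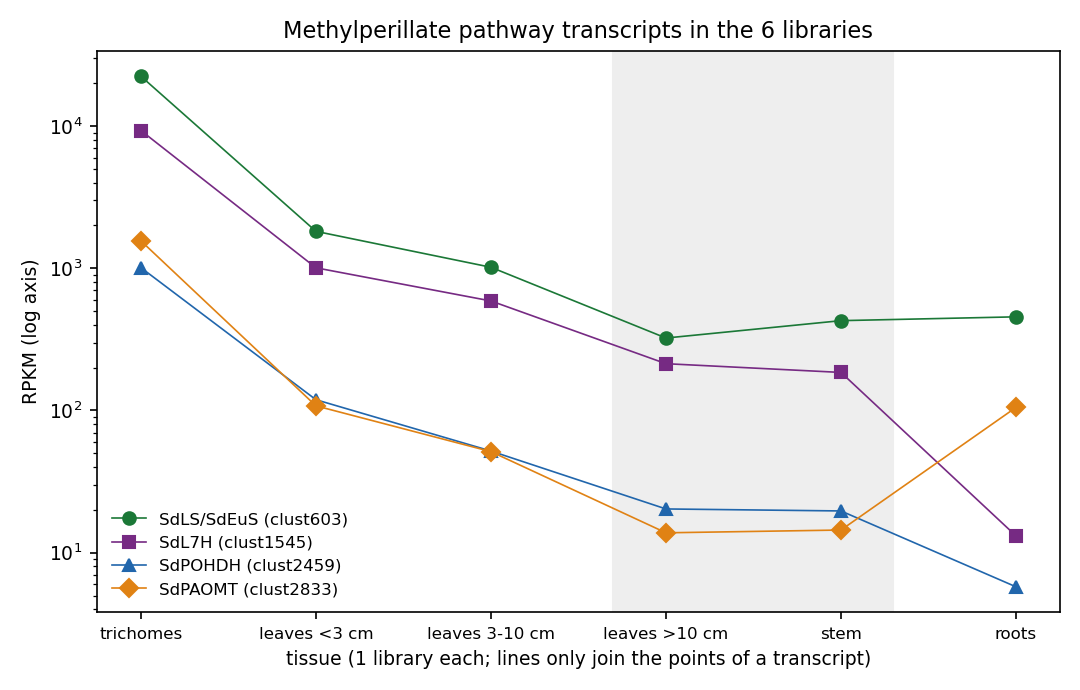
RPKM (vertical, log axis) of the SdLS/SdEuS cluster, SdL7H, SdPOHDH and SdPAOMT in the 6 libraries (horizontal, 1 library each). Leaves >10 cm and stem are shaded, and lines only join the points of a transcript. All 4 transcripts lie within 2-fold between the shaded libraries, far below trichomes.

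Of the 13 terpene synthases 10 were lower in stem, where 74.1% of the list was, and 5 of them by more than 2-fold, where 27.1% of the list was. The other 3 were higher, none by more than 2-fold. The sabinene synthase SdSaS, a monoterpene synthase like SdLS, was at 29.9 RPKM in stem (26.9–33.2) and 105 in the leaf library (99.5–110), a ratio of 0.29 (0.25–0.32). The transcript labelled as the β-pinene synthase SdPS had the highest ratio of the group, at 43.2 against 27.2 RPKM or 1.59 (1.41–1.80). Its database number is the one the study gives for another pinene synthase, SdPCS, so its label is uncertain. The monoterpene synthases named by the study lay on both sides of 1.

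Of the 7 transcripts with sesquiterpene synthase hits 6 were lower in stem, 4 of them by more than 2-fold, beside 74.1% and 27.1% of the list, with a median log2 ratio of −1.32. The most abundant of them, clust1129, closest to germacrene D synthase, was at 72.7 RPKM in stem (67.9–77.7) and 316 in the leaf library (307–325), a ratio of 0.23 (0.21–0.25). Close to it in ratio was clust1050, a caryophyllene or germacrene D synthase hit, at 12.3 and 52.4 RPKM or 0.23 (0.19–0.29). The hits clust1244 and clust1093 had ratios of 0.30 and 0.37. Germacrene D synthases make the hydrocarbon precursor of many plant sesquiterpenes, and 6 transcripts carry that name among their hits. Not all of them were low in stem: clust3938 was at 54.6 and 52.5 RPKM, a ratio of 1.04 (0.90–1.20), and clust2225 at 31.5 and 33.2 RPKM, a ratio of 0.95 (0.79–1.13). Between these lay clust1421, at 96.4 and 163 RPKM or 0.59 (0.55–0.63). The 3 diterpene synthase hits were lower in stem by less than 2-fold, with ratios of 0.67 for clust927, 0.72 for clust874 and 0.81 for clust70, the last a copalyl diphosphate synthase hit, the enzyme that forms the bicyclic precursor of labdane-type diterpenes.

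P450s, the oxygenases that hydroxylate terpene skeletons, were lower in stem in 9 of 10 cases, 3 of them by more than 2-fold, which was near the share of the list past 2-fold, 27.1%, while 74.1% of the list was lower. The 3 were CYP71-type hits. Of these clust1660 was at 11.0 RPKM in stem (9.14–13.2) and 54.7 in the leaf library (50.9–58.7), a ratio of 0.20 (0.17–0.24). The other hit to the same enzyme, CYP71AT89, was clust1523, at 14.5 and 52.2 RPKM or 0.28 (0.23–0.33). The third, clust5902, was at 3.50 and 17.5 RPKM, a ratio of 0.20 (0.11–0.34) that rests on 16 stem fragments. The 3 hits to menthofuran synthase, a limonene-pathway oxygenase of mint, stood nearer to 1. They are SdL7H, clust3466 at a ratio of 0.91 (0.80–1.03) and clust4348 at 0.71 (0.57–0.88). CYP71-type hits had a median log2 ratio of −1.13 and CYP76-type hits, closest to ferruginol synthase of diterpene metabolism, one of −0.53.

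The CYP76-type transcripts differed in direction. The most abundant, clust1609, was at 392 RPKM in stem and 578 in the leaf library, a ratio of 0.68 (0.65–0.70). Near this lay clust1540 at 0.70 (0.66–0.75) and clust1600 at 0.58 (0.49–0.69). In contrast clust1568 was at 91.1 RPKM in stem (85.6–96.9) and 67.8 in the leaf library (63.6–72.2), a ratio of 1.34 (1.23–1.47), and was the only P450 that was higher in stem. A read could match at up to 10 places and similar open reading frames had been merged, so close members of a family may share reads.

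The MEP pathway, with the isopentenyl diphosphate (IPP) isomerase that follows it, was lower in stem at every step measured. All 8 transcripts were lower, 6 of them by more than 2-fold, beside 74.1% and 27.1% of the list. All 8 intervals lay below 1, where 56 of the 85 on the list did. All 8 log2 ratios were also below the list median, so no member turned after either scaling. The group took 0.118% of the mapped fragments in stem and 0.365% in leaves >10 cm. In pathway order, 1-deoxy-D-xylulose 5-phosphate synthase (DXS, clust158), the entry enzyme that joins pyruvate and glyceraldehyde 3-phosphate, was at 48.4 RPKM in stem (45.0–51.9) and 101 in the leaf library (96.8–106), a ratio of 0.48 (0.44–0.52). The next step, the reductoisomerase DXR that forms methylerythritol phosphate itself, had a pair of transcripts. The DXR hit clust5857 was at 73.6 RPKM in stem (66.0–81.9) and 297 in the leaf library (283–311), a ratio of 0.25 (0.22–0.28). The transcript clust1689, whose BLAST hit names DXS but whose PFAM domains are those of DXR, was at 103 and 245 RPKM, a ratio of 0.42 (0.39–0.45).

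The later steps followed the same direction. The kinase CMK (clust2269), which phosphorylates the cytidyl intermediate, was at 63.2 RPKM in stem and 126 in the leaf library, a ratio of 0.50 (0.44–0.57). The cyclodiphosphate synthase MDS (clust4785) was at 98.0 and 251 RPKM, a ratio of 0.39 (0.35–0.43). HDS (clust133), the iron-sulfur enzyme that opens the ring, was the second most abundant listed transcript in the leaf library at 910 RPKM (896–923) and stood at 210 in stem (203–218), a ratio of 0.23 (0.22–0.24). It ranked 2 of 85 in leaves >10 cm and 18 of 85 in stem. HDR (clust1630), which makes the final IPP and its isomer, was at 229 and 550.5 RPKM, a ratio of 0.42 (0.40–0.44). The IPP isomerase clust3980, which interconverts both units, lay closest to the list at 16.9 and 26.8 RPKM or 0.63 (0.48–0.82). Side by side with the other libraries, HDS stood at 520 RPKM in roots and at 628 and 520 in the <3 cm and 3–10 cm leaf classes. DXR (clust5857) was at 276 RPKM in roots and at 150 and 153 in the same leaf classes, so stem was the lowest of the 6 for both.

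**Figure D4:**
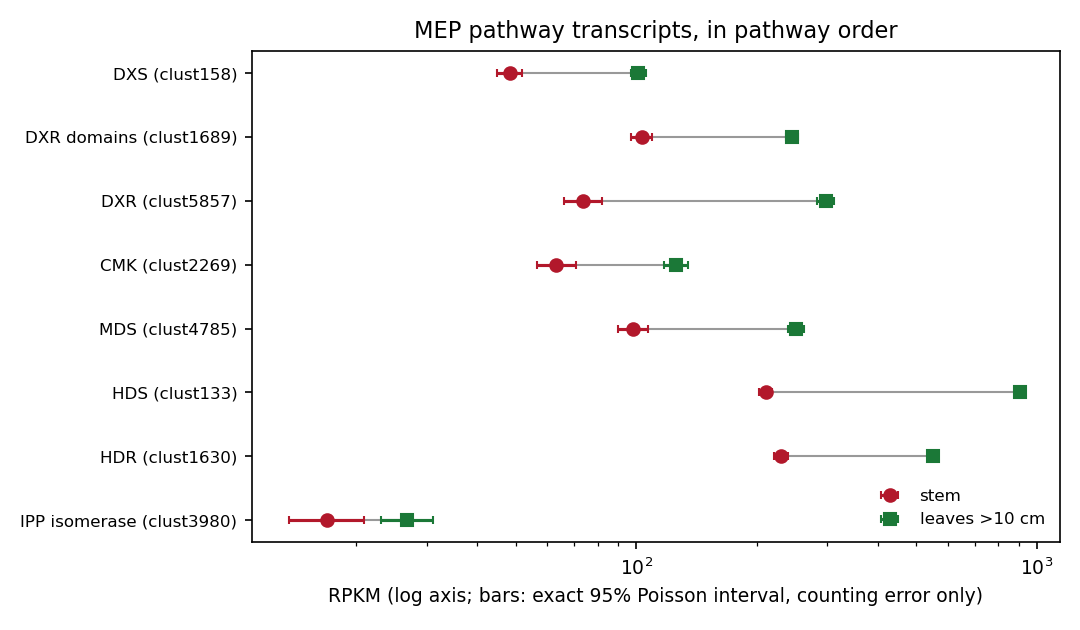
RPKM (horizontal, log axis) of the 8 transcripts of the MEP pathway and IPP isomerase (vertical, in pathway order) in stem (red circles) and leaves >10 cm (green squares), 1 library each. Bars are exact 95% Poisson intervals for counting error, and grey lines join both values of a transcript. Stem lies to the left in all 8, from a ratio of 0.23 for HDS to 0.63 for IPP isomerase.

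The prenyl diphosphate synthases, which join the isoprene units, were closest to lavandulyl diphosphate synthase and lay on opposite sides. In stem clust3337 was at 54.3 RPKM and in the leaf library at 46.0, a ratio of 1.18 (1.02–1.36). The other, clust3861, was at 27.0 and 49.1 RPKM, a ratio of 0.55 (0.46–0.66). They were nearly level in the leaf library, and in stem clust3337 was the higher.

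Methyltransferases had ratios of 0.65 to 1.05, apart from clust2791. Of the 9, 6 were lower in stem, near the 74.1% of the list, and none by more than 2-fold, where 27.1% of the list was. The other 3 were higher, 1 by more than 2-fold, beside 25.9% and 4.71% of the list, and the median log2 ratio was −0.31. The SABATH methyltransferases, which form methyl esters of small acids, include SdPAOMT and the abundant clust2514 at 351 RPKM in stem and 487 in the leaf library, a ratio of 0.72 (0.68–0.76), and clust4450 at 163 and 238 RPKM or 0.69 (0.63–0.74). Among the phenolic O-methyltransferase hits, which methylate the hydroxyl groups of phenylpropanoids and flavonoids, clust2472 had the lowest ratio at 0.65 (0.55–0.77). The flavonoid methyltransferase hits clust2684 and clust2724 were at 0.78 (0.67–0.91) and 0.80 (0.68–0.94). Apart from these stood clust2791, closest to caffeic acid 3-O-methyltransferase, at 4.37 RPKM in stem and 0.70 in the leaf library. Its ratio of 6.27 (2.74–16.8) rests on 34 stem fragments and 7 leaf fragments, and its level in leaves <3 cm, 41.8 RPKM, was above both.

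Dehydrogenases and reductases, of several kinds by their hits, held both directions. In stem 7 of 8 were lower, 3 by more than 2-fold, and 1 was higher, beside 74.1%, 27.1% and 25.9% of the list. The short-chain type was lowest. Closest to menthol dehydrogenase of mint, clust3165 was at 19.4 RPKM in stem (16.3–22.9) and 94.2 in the leaf library (88.1–101), a ratio of 0.21 (0.17–0.25). The short-chain dehydrogenase clust3054, closest to the chloroplast protein TIC 32, was at 67.4 and 273 RPKM or 0.25 (0.22–0.27). The peroxisomal enoyl-CoA reductase hit clust4242 was at 267 and 315 RPKM, a ratio of 0.85 (0.80–0.91).

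The 2-alkenal reductase hits, of enzymes that reduce reactive unsaturated aldehydes, were a pair in opposite directions. In stem clust2675 stood at 464 RPKM (449–479) and in the leaf library at 274 (264–284), a ratio of 1.69 (1.61–1.78). Its relative clust3274 stood at 179 RPKM in stem (169–189) and 433 in the leaf library (419–447), a ratio of 0.41 (0.39–0.44). So clust3274 was the higher of the pair in the leaf library and clust2675 in stem, by levels per length. Near 1 lay clust3515, the phenylcoumaran benzylic ether reductase-like transcript with the highest RPKM of the list in trichomes, at 239 and 246 RPKM or 0.97 (0.91–1.04). The aldehyde dehydrogenase clust1416, of the family that turns aldehydes into acids, was at the list median with a ratio of 0.72 (0.64–0.81).

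Of the 7 genes of primary carbon and energy metabolism 4 were higher in stem, 1 of them by more than 2-fold, where 25.9% and 4.71% of the list were. The other 3 were lower, 2 of them by more than 2-fold, against 74.1% and 27.1% of the list. The 3 with mitochondrial hits were all higher in stem. The β subunit of mitochondrial ATP synthase (clust1041) was at 914 RPKM in stem (897–931) and 598 in the leaf library (586–610), a ratio of 1.53 (1.49–1.57). Subunit O of the same complex (clust4711) was at 556 and 462 RPKM or 1.20 (1.15–1.26). Malate dehydrogenase of the citric acid cycle (clust1810) was at 758 and 687 RPKM or 1.10 (1.06–1.14). These stood at 54.8% to 80.7% of their trichome level in stem, where the list median was 2.24%. In leaves >10 cm they stood at 45.5% to 61.8%, where the list median was 3.35%.

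The 4 transcripts of plastid carbon metabolism had log2 ratios from −4.19 to 1.15. The chloroplast fructose-bisphosphate aldolase hit clust2220, an enzyme of the Calvin cycle and glycolysis, was at 644 RPKM in stem (627–661) and 289 in the leaf library (279–299), a ratio of 2.23 (2.14–2.33). The chloroplast triosephosphate isomerase hit clust2916, its neighbour in both pathways, was at 451 and 668 RPKM or 0.67 (0.65–0.70). Glucose-6-phosphate isomerase (clust628), which leads towards starch, was at 136 and 274 RPKM or 0.50 (0.47–0.52). The lowest log2 ratio of the list belonged to clust2305, closest to the chloroplast phosphoenolpyruvate/phosphate translocator 2, a carrier of phosphoenolpyruvate across the plastid envelope. It was at 4.47 RPKM in stem (3.18–6.11) and 98.7 in the leaf library (93.0–105), 22.1 times as high in leaf (16.0–31.2), with 39 stem fragments and 1111 leaf fragments. In roots it was at 0.64 RPKM, and in leaves <3 cm and 3–10 cm at 63.6 and 74.8.

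Antioxidant enzymes included the second most abundant transcript in stem. The copper/zinc superoxide dismutase clust5995, which turns superoxide into hydrogen peroxide, was at 1253 RPKM in stem and 622 in the leaf library, a ratio of 2.01 (1.93–2.10). It was 1 of 2 listed transcripts that were higher in stem than in all 3 leaf classes, with 1203 and 942 RPKM in the <3 cm and 3–10 cm leaf classes, and the other was the alkenal reductase clust2675. The peroxiredoxin hit clust5140 was at 318 and 301 RPKM or 1.06 (0.99–1.13), and the glutathione peroxidase hit clust5293 was at 282 and 386 RPKM or 0.73 (0.68–0.78).

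Of the 5 lipid, wax and cuticle genes 4 were lower in stem, close to the 74.1% of the list, and 2 of them by more than 2-fold, beside 27.1% of the list. The GDSL esterase/lipase clust2690 was at 25.9 RPKM in stem (22.5–29.7) and 210 in the leaf library (202–219), 8.12 times as high in leaf (7.03–9.41). Another GDSL esterase/lipase, clust2659, lay on the other side at 42.3 and 35.3 RPKM, a ratio of 1.20 (1.03–1.39). The ECERIFERUM 1-like transcript clust458, of the family that makes the alkanes of cuticular wax, was at 52.6 and 179 RPKM or 0.29 (0.27–0.32). A fatty acyl-CoA reductase hit, clust2942, was at 0.52 (0.36–0.75) and a ketoacyl-ACP synthase hit, clust1812, at 0.79 (0.64–0.96). The 3 of these transcripts that serve as epidermis and cuticle markers summed to 121 RPKM in stem and 425 in the leaf library, none was at 0, and 2 of 3 were lower in stem. Their part in the other differences was not tested.

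All 3 acyltransferases of the BAHD type, which transfer acyl groups from CoA to alcohols and amines, were lower in stem, as was 74.1% of the list. The vinorine synthase-like clust5317 was at 1.79 RPKM in stem (0.82–3.40) and 45.0 in the leaf library (39.9–50.4), 25.1 times as high in leaf (13.1–55.5). It had 9 fragments in stem and 292 in the leaf library, and its root level of 1.79 RPKM was close to that of stem. The malonyltransferase hit clust1854 was at a ratio of 0.57 (0.51–0.63), and the lavender alcohol acyltransferase hit clust1946 at 0.91 (0.83–0.99). Both carotenoid cleavage dioxygenases, which cut carotenoids into scented apocarotenoids and related products, were lower in stem as well, clust1111 at 0.56 (0.51–0.61) and clust976 at 0.59 (0.52–0.68).

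Sieve element occlusion proteins, which plug phloem sieve tubes after wounding, were scarce in both libraries. The more abundant, clust226, was at 9.33 RPKM in stem (7.88–11.0) and 6.24 in the leaf library (5.20–7.43), a ratio of 1.5 (1.17–1.91). The other, clust219, was the lowest listed transcript in stem, at 0.79 RPKM against 0.75 with 9 and 11 fragments, a ratio of 1.06 (0.39–2.80). Taken as phloem markers by their hits, both summed to 10.1 RPKM in stem, 6.99 in leaves >10 cm and 679 in leaves <3 cm. Neither was at 0. Their sum was 2898 RPKM in trichomes and 3.10 in roots, and whether they mark phloem in these libraries was not tested. BURP-domain proteins, a plant family named for its shared C-terminal domain, included the most abundant listed transcript of both libraries. This was clust2906, at 1261 RPKM in stem and 1156 in the leaf library, a ratio of 1.09 (1.06–1.12). The RD22-like clust2665 was at 20.3 and 24.1 RPKM or 0.84 (0.66–1.07).

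At the ends of the list the support by fragments differed. The 10 lowest log2 ratios ran from −4.19 for clust2305 to −2.00 for clust3054, and the intervals of all 10 lay below 1. The 10 highest ran from 1.66 for clust2791 to 0.42 for clust1568, and the intervals of all 10 lay above 1. Both sets were picked by this ratio, and 73 of the 85 intervals exclude 1, so these intervals are no separate evidence. Of the 4 transcripts that were higher in stem by more than 2-fold, clust2220 and clust5995 were abundant, while clust2791 and clust3441 had fewer than 50 fragments in each library. The uncharacterised clust3441 was at 3.14 RPKM in stem and 0.36 in the leaf library, a ratio of 8.61 (2.55–45.2) from 20 and 3 fragments. The serine carboxypeptidase-like clust1559 was at 1.35 and 0.28 RPKM, a ratio of 4.84 (1.54–20.04) from 15 and 4 fragments, and the added 1 RPKM kept it under 2-fold on the log2 scale.

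**Figure D5:**
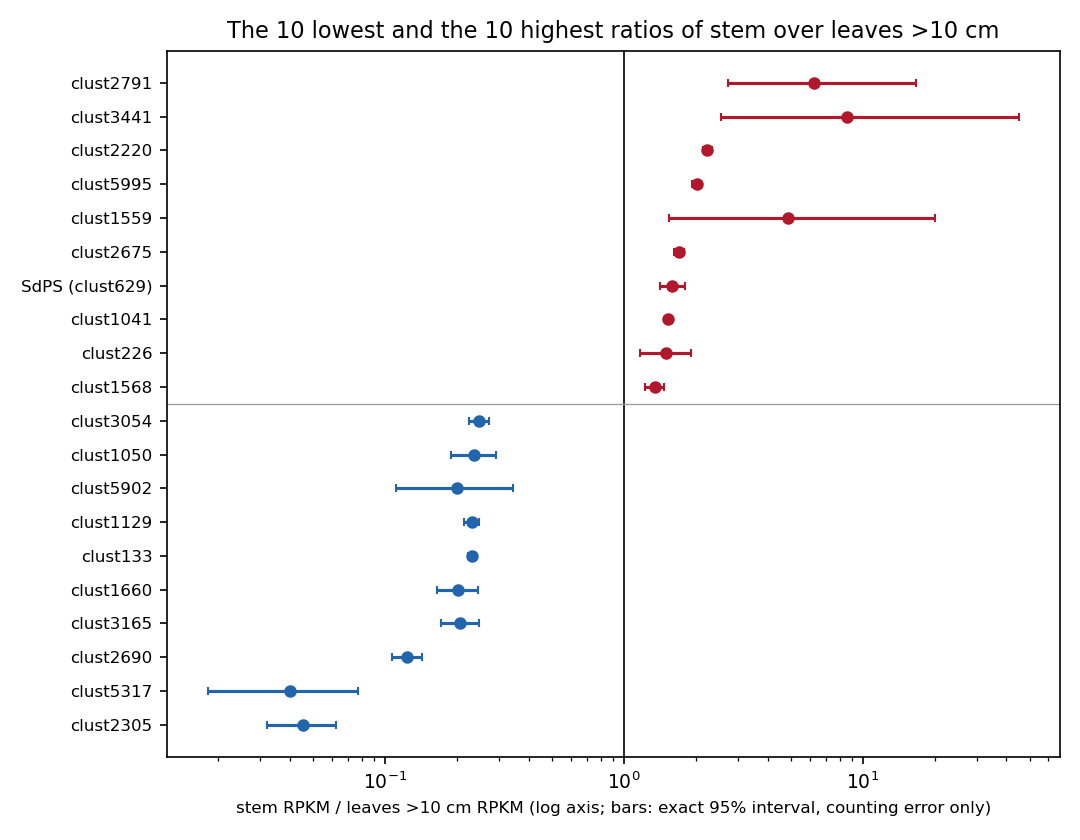
Ratio of stem over leaves >10 cm (horizontal, log axis) of the 10 transcripts with the highest (red) and the 10 with the lowest (blue) log2 ratio of RPKM + 1 (vertical). Bars are exact 95% intervals for counting error, and the vertical line marks a ratio of 1. None of the 20 intervals reaches 1, which is no separate evidence because the transcripts were picked by this ratio. The widest intervals belong to clust3441, clust1559, clust2791 and clust5317, all with fewer than 50 fragments in stem.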

How the data were processed

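RNA of 6 tissues was sequenced with 1 stranded library per tissue, and reads were demultiplexed in CASAVA (version 1.8.1 in the submitters' processing notes). In CLC Genomics Workbench the authors aligned pairs to trichome-derived open reading frames, 600 nt or longer and merged by similarity into clusters, without regard to strand, with up to 10 hits per read and a pair counted once. Values were deposited as RPKM by the authors. The deposited correlation columns are the authors' own comparisons and were not used, and 0 RPKM columns belonged to other samples.

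RPKM values were used unfiltered, with a pseudocount of 1 RPKM on the log2 scale. Library totals were taken as the smallest whole numbers at which all transcripts gave whole fragments at a coding length that is a multiple of 3, which gave lengths of 609 to 2961 nt. If the true totals are multiples of these, the intervals given are wider than they should be. The search was tested on simulated data. Transcripts were placed in 13 groups (74 transcripts, 11 in none).

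Named by rule were the 6 characterised transcripts, the 10 highest and 10 lowest ratios, the highest and lowest of each group, and the 5 highest levels in stem and in leaves >10 cm, 39 in all. Further transcripts were named with their values already known, to fill out a group. The members, groups and rule were chosen with earlier results of these data known. Alternatives were other pseudocounts, filters, thresholds and scalings. Computation used Python 3.11.15, numpy 2.4.6, pandas 2.3.3, scipy 1.17.1 and numba 0.67.0.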

Additional observations from a re-analysis of the deposited data

How the results depend on the processing

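No paired analysis was possible because each tissue has 1 library, and for the same reason no replicate could be left out and no spread between plants is known. The count of transcripts higher in stem was sensitive to low values: 4 past 2-fold became 1 with a pseudocount of 10 RPKM, 2 among the 80 transcripts with at least 10 RPKM in stem or leaves >10 cm, and 2 among the 77 with at least 50 fragments in both libraries, a filter chosen after seeing the data. Past 1.5-fold 35 were lower and 8 higher, and past 4-fold 10 were lower and 0 higher. Scaled to the list median, 15 were lower and 8 higher, the median log2 ratio became 0 and 6 of 13 group medians were below 0. Scaled to the same listed sum, the median became −0.19. Intervals that exclude 1 numbered 73, and 67 and 66 under these scalings. Other pseudocounts and filters turned the sign of 0 of the 39 transcripts named by rule that they kept, while scaling to the list median turned 5 and to the listed sum 4.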

Other observations

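The 11 listed transcripts outside the gene groups had a median log2 ratio of −0.20. In stem 8 were lower and 3 higher, near the 74.1% and 25.9% of the list. The PDR-type ABC transporter hit clust10, of a family that exports lipophilic compounds across the plasma membrane, was at 35.4 RPKM in stem (32.9–38.0) and 69.8 in leaves >10 cm (66.8–73.0), a ratio of 0.51 (0.46–0.55). The lowest ratio of these 11 belonged to clust4414, a phenazine biosynthesis-like protein, at 41.8 and 98.6 RPKM or 0.42 (0.37–0.49). A chalcone-flavonone isomerase hit of flavonoid synthesis, clust6044, was at 25.3 and 49.0 RPKM or 0.52 (0.41–0.65). The only transcription factor hit of the list, the ethylene-responsive factor ESR2-like clust4655, was at 11.1 and 12.9 RPKM, a ratio of 0.86 (0.61–1.20). A membrane steroid-binding protein hit, clust5333, was higher in stem at 178 and 133 RPKM or 1.34 (1.22–1.47), with 610 RPKM in roots. The epoxide hydrolase hit clust3307 was at 332 and 362 RPKM or 0.92 (0.87–0.97).

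Set beside each of the other libraries, the same stem library stood lowest against trichomes, with a median log2 ratio of −5.46. Against leaves <3 cm the median was −2.07, with 83 of 85 transcripts lower in stem. Against leaves 3–10 cm it was −1.55, with 80 of 85 lower, and against leaves >10 cm −0.46, with 63 of 85 lower. Against roots it was 1.78, with 65 of 85 higher in stem. All these comparisons share the stem library. Of the MePA pathway, SdPAOMT was at 105 RPKM in roots and 14.4 in stem, and the SdLS/SdEuS cluster at 455 and 428, while SdL7H was at 13.1 and 185 and SdPOHDH at 5.76 and 19.7.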
